A study of Rattus norvegicus with 6 samples.

Results

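Crh, Crhr1, Crhbp, Adcyap1, Adcyap1r1, Npy1r, Npy2r, Penk, Pdyn and Oxtr are 10 genes that code for neuropeptides, a binding protein and neuropeptide receptors of the brain's stress circuits. They were taken by gene symbol, and each symbol occurred once among the 22062 genes of the deposited table. Their RNA was measured by sequencing of ribosomal-RNA-depleted total RNA from hippocampus of Sprague Dawley rats, in 3 samples labelled SPS and 3 labelled Control. SPS is single prolonged stress, a rodent procedure used to model post-traumatic stress. SPS rats spent 2 hours immobilised in a plastic container, swam for 20 minutes in water of 24 °C with a rest of 15 minutes, were anaesthetised until unconscious and went back to their cages, while Control rats stayed unhandled in the home cage. The labels give neither age nor sex, nor the time between stress and tissue collection, nor whether a sample is 1 animal. The p-values below therefore reflect the variation among 6 samples, part of which may be technical.

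Neuropeptides are cut from larger precursor proteins, stored in dense-core granules and released to act on G-protein-coupled receptors, often at some distance from the releasing neuron. Corticotropin-releasing hormone (Crh) drives the pituitary stress axis from the hypothalamus, and in hippocampus it is made by interneurons and acts on pyramidal cells through its receptor Crhr1. PACAP (Adcyap1) and neuropeptide Y act on overlapping circuits, the first mostly raising and the second mostly lowering cyclic AMP through their receptors. Enkephalins (from Penk) and dynorphins (from Pdyn) are opioid peptides, and dynorphin is a product of dentate granule cells and their mossy fibres.

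Read depth ranged from 4081184 to 11148531 reads in SPS libraries and from 4786503 to 11838770 reads in Control libraries. The number of genes without a single read was 6295, 9758 and 7836 in SPS replicates 1 to 3, against 6351, 8110 and 7611 in Control replicates 1 to 3. In 4 of the libraries the number of genes declined steadily with the number of reads per gene. In SPS replicate 2 it did not, since 161 genes had 1 read, only 32 had 9 reads and 113 had 23 reads, and in Control replicate 2 there were 153 genes at 1 read and still 146 at 11 reads. The maximum in SPS replicate 2 was broad, with 64 genes at 15 reads and 76 at 30 reads. These counts do not separate molecules from PCR copies. The choroid plexus marker Ttr was at 31254 CPM (reads per 1e+06 reads, after scaling) in SPS replicate 2 and at 17.2 to 113 CPM in the other 5 libraries. Hippocampal markers were present in every library: the dentate granule cell list summed to 397 to 1405 CPM in SPS and 303 to 1364 CPM in Control, and the CA3 list to 729 to 1170 CPM in SPS and 896 to 1207 CPM in Control. Prox1, the defining transcription factor of dentate granule cells, was at 66.4 to 437 CPM in SPS and 5.68 to 419 CPM in Control, lowest in Control replicate 2.

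**Figure D1:**
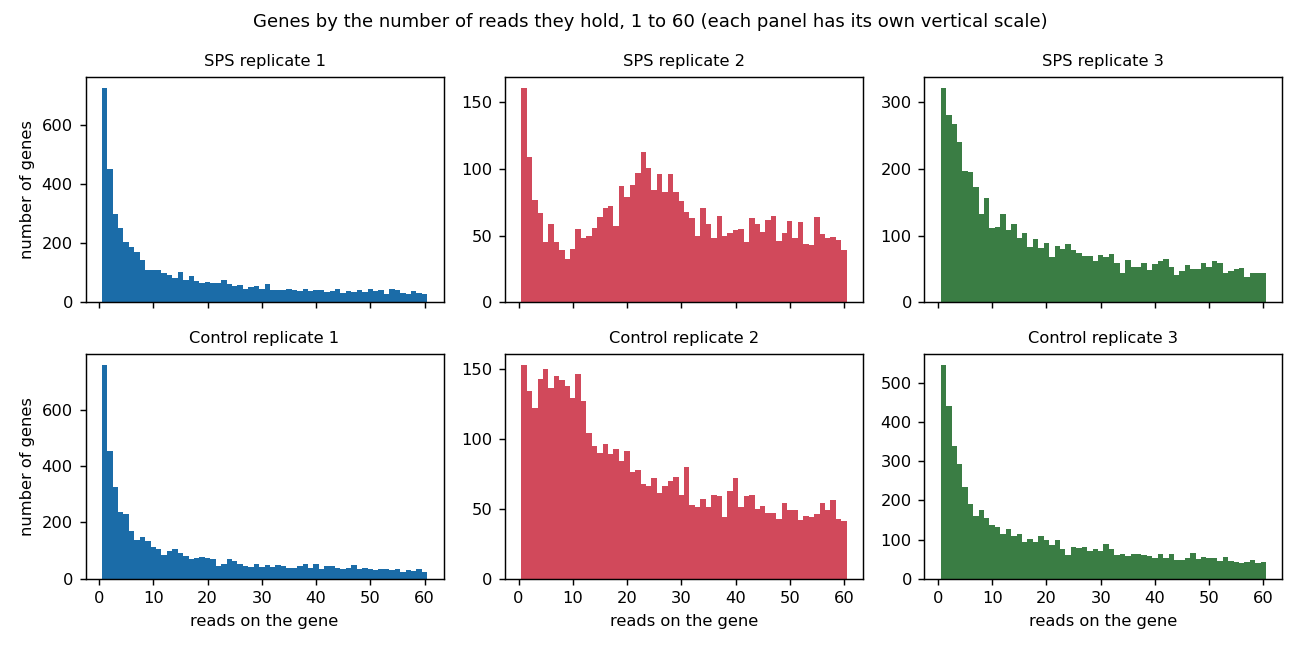
Number of genes (vertical axis, own scale per panel) by the number of reads on the gene (horizontal axis, 1 to 60) in the 3 SPS libraries above and the 3 Control libraries below. SPS replicate 2 has a separate maximum at 23 reads with 113 genes and a low at 9 reads with 32 genes, and Control replicate 2 stays near its 1-read number up to 11 reads.

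The question was whether these transcripts differ in hippocampus after SPS. No difference was called for any of them. In edgeR's quasi-likelihood fit, with p-values adjusted by Benjamini and Hochberg's method, 0 of the 7 genes that passed the expression filter differed between SPS and Control (adjusted p = 1.00 for each), and 0 of 12441 genes tested did, a background of 0%. At an unadjusted p under 0.05 there were 0 of the 7 and 42 of all genes (0.338%), DESeq2 gave 0 by adjusted p and 84 by unadjusted p over all genes, and limma on FPKM gave 0 and 65. The 7 were Crhbp, Adcyap1, Adcyap1r1, Npy1r, Npy2r, Penk and Pdyn, and Crhbp and Npy2r among them were counted thinly, with under 10 reads in at least 1 library. Crh, Crhr1 and Oxtr, with 55, 45 and 42 reads over all 6 libraries, were too low to test. The SPS and Control libraries overlapped in all 10 genes. Groups apart, with SPS higher or SPS lower, were found for 1.54% and 1.4% of all genes tested, 2.94% together.

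Of the 7 tested genes 4 had a positive and 3 a negative log2 fold change, SPS over Control, with a median of 0.12, against 5956 positive and 6485 negative and a median of −0.02 over all genes tested. The median size of the log2 fold change without its sign was 0.37 in the 7 and 0.23 over all genes. In the fit on group alone the intervals were wide, and the narrowest, that of Penk, ran from −0.72 to 1.21. With replicate number as a block the narrowest was that of Adcyap1r1, from −0.45 to 0.50. Leaving out 1 library moved the log2 fold change of each of the 7 by over 1.5 times. A bulk sample does not separate fewer cells of a type from less RNA per cell.

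**Figure D2:**
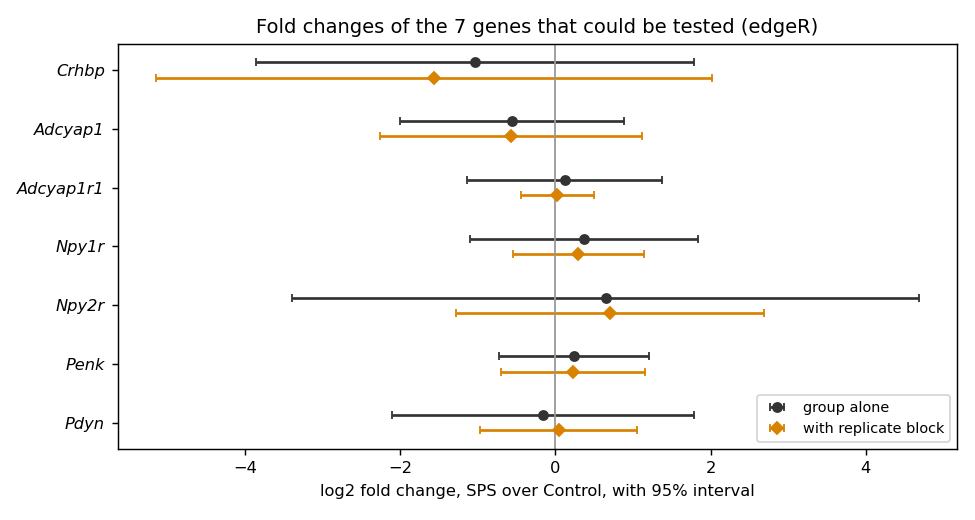
Log2 fold change, SPS over Control, of the 7 genes that could be tested, with 95% intervals from edgeR; circles are from the fit on group alone and diamonds from the fit with replicate number as a block. All 14 intervals include 0, and the narrowest is that of Adcyap1r1 with the block, from −0.45 to 0.50.

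Crh, the peptide that starts the stress-axis cascade (ENSRNOG00000012703, chromosome 2, 104459998 to 104461863, minus strand), had 14, 0 and 6 reads in SPS replicates 1 to 3 and 27, 6 and 2 reads in Control replicates 1 to 3. Scaled to depth this was 0.78 ± 0.68 CPM in SPS and 1.29 ± 0.98 CPM in Control (mean ± SD, n = 3 each). The groups overlapped, and the pair numbered 3 ran opposite to the pairs numbered 1 and 2. Over the group the 20 SPS reads gave 0.957 CPM (95% exact Poisson interval 0.584 to 1.48) and the 35 Control reads 1.62 CPM (1.13 to 2.25), intervals that cover counting error only.

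Crhr1, the main receptor for Crh in forebrain (ENSRNOG00000004900, chromosome 10, 92191717 to 92232645, plus strand), had 19, 0 and 4 reads in SPS and 20, 0 and 2 reads in Control replicates 1 to 3. Libraries of the same number were nearly alike, and both libraries numbered 2 had none. If reads are independent, a count of 0 allows up to 0.694 CPM in SPS replicate 2 and 0.532 CPM in Control replicate 2. Genes at 5 to 15 CPM elsewhere were at 0 in 14.2% of cases in SPS replicate 2 and 2.00% in Control replicate 2. The limits may therefore be too low for the libraries numbered 2, and why genes were at 0 there was not tested. Crhr2, the second receptor, is made by choroid plexus among other sites, and had 0.907, 19.0 and 1.796 CPM in SPS against 0.350, 8.52 and 1.10 CPM in Control. It was highest in the libraries numbered 2 of each group, and was too low to test. Choroid plexus markers, 10 genes with Otx2 listed at 0 everywhere, summed to 142, 37499 and 158 CPM in SPS replicates 1 to 3. In Control replicates 1 to 3 they summed to 92.8, 109 and 268 CPM. The Control sum was therefore highest in replicate 3, while Crhr2 was highest in Control replicate 2. The part of choroid plexus in the level of Crhr2 was not tested. Ucn, the urocortin ligand of both receptors, was listed at 0 in all 6 libraries.

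Crhbp, a secreted protein that binds Crh and keeps it from its receptors (ENSRNOG00000017890, chromosome 2, 25141470 to 25153334, minus strand), was at 9.25, 0 and 4.31 CPM in SPS and at 8.75, 12.95 and 6.60 CPM in Control replicates 1 to 3. SPS replicate 2 held none of its reads and Control replicate 2 held the highest level, so the pair numbered 2 carried most of the difference. The log2 fold change was −1.04 ± 1.21 (SE, 95% interval −3.86 to 1.79, edgeR unadjusted p = 0.420), and −1.06 by DESeq2. By limma it was −1.19 on log2(FPKM + 1) and −2.29 on log2(FPKM + 0.1). In edgeR, leaving out SPS replicate 2 gave −0.46, and leaving out SPS and Control replicate 2 together gave −0.19. Markers of interneurons, the cells that make Crhbp in cortex and hippocampus, summed to 795 to 1522 CPM in SPS and 974.6 to 1439 CPM in Control over 13 genes, of which Npy was listed at 0 everywhere, and were lowest in SPS replicate 2. The list was not uniform, as 6 of its 12 genes with reads were lowest in SPS replicate 2 and 1 was highest there. Gad1 and Gad2, GABA-synthesising enzymes, had 133 and 166 CPM in SPS replicate 2, while Slc32a1, the vesicular GABA transporter, had 112 CPM there, its highest level. The part of cell makeup in the level of Crhbp was not tested.

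Adcyap1, the precursor of PACAP (ENSRNOG00000049882, chromosome 9, 121706978 to 121725716, minus strand), was at 11.9, 6.71 and 22.3 CPM in SPS and at 17.2, 32.1 and 11.002 CPM in Control replicates 1 to 3. SPS lay below Control in the pairs numbered 1 and 2 and above it in the pair numbered 3. Its log2 fold change was −0.56 ± 0.62 (SE, 95% interval −2.01 to 0.89, edgeR unadjusted p = 0.396), the smallest p among the 7. It was −0.07 without Control replicate 2, and 0.24 without both libraries numbered 2. In SPS replicate 2 the gene held 29 reads, within the broad maximum around 23 reads in that library, and what this means for its level was not tested.

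Adcyap1r1, the receptor PAC1 that binds PACAP with high affinity (ENSRNOG00000012098, chromosome 4, 85662891 to 85711696, plus strand), was the most abundant of the 10, with 595 to 2993 reads per library. Its level was 272, 138 and 495 CPM in SPS against 242, 176 and 413 CPM in Control replicates 1 to 3. Libraries numbered 3 were highest and libraries numbered 2 lowest in both groups. For Adcyap1r1 the log2 fold change was 0.12 ± 0.54 (SE, 95% interval −1.13 to 1.37). With replicate number as a block it was 0.03 ± 0.19 (95% interval −0.45 to 0.50), so that a 2-fold change lay outside the interval of that fit. Without SPS replicate 3 the value was −0.44 and without Control replicate 2 it was −0.14. Astrocyte markers summed to 4801 to 6088 CPM in SPS and 5029 to 5932 CPM in Control over 9 genes, none at 0 everywhere, and 1 of these 9, Aqp4, had the order of numbers seen in Adcyap1r1 in both groups. That order also held for 4 of 10 dentate granule cell genes, 2 of 8 CA3 genes, 2 of 12 interneuron genes and 1 of 10 oligodendrocyte genes. It held for no gene of the other marker lists. The part of cell makeup in the level of Adcyap1r1 was not tested. Vipr2 and Vipr1, receptors that bind PACAP and VIP, were low. Vipr2 was at 3.27, 4.40 and 5.57 CPM in SPS and 5.95, 6.03 and 5.50 CPM in Control replicates 1 to 3, and Vipr1, with 43 reads in all, was not tested.

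Npy1r, the Y1 receptor for neuropeptide Y (ENSRNOG00000014149, chromosome 16, 24779476 to 24788740, minus strand), was at 14.3, 9.03 and 31.4 CPM in SPS and at 14.1, 7.45 and 20.9 CPM in Control replicates 1 to 3. SPS was above Control in all 3 pairs, by 0.02, 0.26 and 0.58 on the log2 scale, and 11.6% of all genes tested shared that pattern. Npy1r was the 1 tested gene of the 7 with it. The log2 fold change was 0.37 ± 0.63 (SE, 95% interval −1.09 to 1.83, edgeR unadjusted p = 0.574), and −0.28 without SPS replicate 3. With replicate number as a block it was 0.30 ± 0.34 (SE, 95% interval −0.55 to 1.14). The ratio of the deposited count to FPKM, which follows the effective transcript length, was 17.0, 12.7 and 20.5 in SPS and 16.3, 16.01 and 21.1 in Control, so the length of transcript assumed for this gene was not the same in every library. For Adcyap1 the same ratio was 11.8 in SPS replicate 2 and 15.1 to 15.8 in the other libraries. For Adcyap1r1 it stayed between 47.3 and 47.9.

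Npy2r, the Y2 receptor, which sits on nerve endings and limits transmitter release (ENSRNOG00000049213, chromosome 2, 181530831 to 181531978, minus strand), was at 6.805, 0 and 17.1 CPM in SPS and at 3.68, 0 and 11.7 CPM in Control replicates 1 to 3. SPS was higher in the pairs numbered 1 and 3, 1.85 and 1.46 times Control in CPM, and both libraries numbered 2 had no read. Its log2 fold change was 0.65 ± 1.74 (SE, 95% interval −3.39 to 4.69, edgeR unadjusted p = 0.718), 0.62 by DESeq2, and −0.54 without SPS replicate 3. Without both libraries numbered 2 it was 0.63 ± 0.82 (edgeR unadjusted p = 0.479). With replicate number as a block and all 6 libraries it was 0.70 ± 0.76 (SE, 95% interval −1.28 to 2.68). Npy5r, the Y5 receptor, also had no reads in either library numbered 2 and stood at 7.62 and 6.83 CPM in SPS replicates 1 and 3, against 5.43 and 5.94 CPM in Control replicates 1 and 3. Npy, the ligand and a hippocampal interneuron marker, was listed at 0 in all 6 libraries in both the count and the FPKM columns, while Sst, made by many of the same cells, was at 42.2 to 99.5 CPM in SPS and 39.2 to 139 CPM in Control. The 0 of Npy is therefore given as listed, not as a level.

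**Figure D3:**
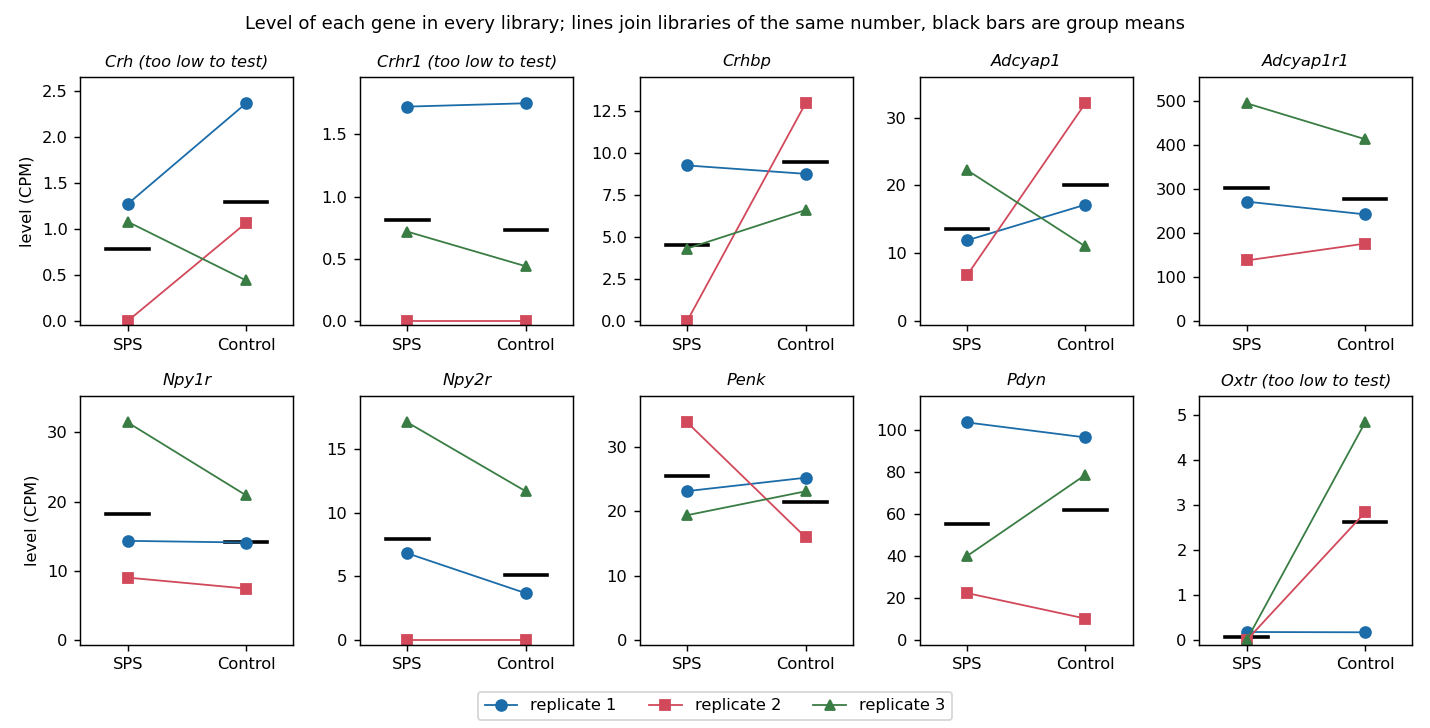
Level (CPM, linear axis per gene) of the 10 genes in each SPS library (left in each panel) and each Control library (right), with lines between libraries of the same number and black bars at the group means. The 3 lines keep their order for Crhr1, Adcyap1r1, Npy1r, Npy2r and Pdyn and cross for Crh, Crhbp, Adcyap1, Penk and Oxtr, and the libraries numbered 2 are at 0 for Npy2r and Crhr1.

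Penk, the precursor of the enkephalins (ENSRNOG00000008943, chromosome 5, 17056418 to 17061837, minus strand), was the steadiest of the 7, with 23.1, 33.8 and 19.4 CPM in SPS and 25.2, 15.97 and 23.1 CPM in Control replicates 1 to 3. Its highest library was 2.12 times its lowest. SPS replicate 2 was the highest and Control replicate 2 the lowest, while the pairs numbered 1 and 3 had SPS slightly below Control. Its log2 fold change was 0.25 ± 0.42 (SE, 95% interval −0.72 to 1.21, edgeR unadjusted p = 0.572), −0.01 without SPS replicate 2 and −0.20 without both libraries numbered 2. Penk is also abundant in striatum. Markers of striatum and hypothalamus summed to 97.0 to 439 CPM in SPS and 102 to 279 CPM in Control over 11 genes, with Otp listed at 0 everywhere, and were highest in SPS replicate 2. Most of that sum was Ppp1r1b at 408 CPM, while the striatal receptors Drd1 and Adora2a had no read in that library. Their part in the level of Penk was not tested.

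Pdyn, the precursor of the dynorphins (ENSRNOG00000026036, chromosome 3, 122194328 to 122206671, minus strand), varied most among the 5 tested genes that had reads in every library, with 104, 22.5 and 40.1 CPM in SPS and 96.6, 10.3 and 78.8 CPM in Control replicates 1 to 3. The highest library was 10.1 times the lowest, and the 2 lowest were those numbered 2. SPS was at 1.07 times Control in the pair numbered 1, 2.18 times in the pair numbered 2 and 0.508 times in the pair numbered 3. The log2 fold change was −0.16 ± 0.84 (SE, 95% interval −2.11 to 1.79, edgeR unadjusted p = 0.856) and 0.04 ± 0.41 with the replicate block, and its sign also turned when single libraries were left out. Dentate granule cell markers summed to 397 to 1405 CPM in SPS and 303 to 1364 CPM in Control over 10 genes, none of them at 0 everywhere, and were lowest in the libraries numbered 2. Of the 10 genes 3 had both libraries numbered 2 below the other 4, as Pdyn did. Others were low in only 1 library numbered 2. Calb1 was lowest in SPS replicate 2 at 19.7 CPM and highest in Control replicate 2 at 126 CPM. Plk5 was lowest in Control replicate 2 at 2.31 CPM and highest in SPS replicate 2 at 51.6 CPM. The part of the granule cell share of the tissue in the level of Pdyn was not tested.

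The receptors for these opioids were low. Oprk1, the kappa receptor that dynorphin prefers, had 5 reads in all, and was too low to test. Oprm1, the mu receptor, was at 2.09, 0 and 12.8 CPM in SPS and 0.438, 1.24 and 8.58 CPM in Control replicates 1 to 3, and was highest in the libraries numbered 3. Oprd1, the delta receptor that enkephalins bind, was at 0.726, 0 and 5.21 CPM in SPS and 0.613, 1.95 and 1.98 CPM in Control. The log2 fold changes of Oprm1 and Oprd1 were 0.55 ± 1.65 and 0.40 ± 1.495 (SE), smaller than their errors.

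Oxtr, the oxytocin receptor, expressed in rodent hippocampus by interneurons and by CA2 and CA3 pyramidal cells (ENSRNOG00000005806, chromosome 4, 144403357 to 144416116, minus strand), had 2, 0 and 0 reads in SPS and 2, 16 and 22 reads in Control replicates 1 to 3. The pair numbered 1 was alike at 0.181 CPM in SPS and 0.175 CPM in Control. Control replicates 2 and 3 were at 2.84 and 4.84 CPM, where the count of 0 in SPS replicate 3 allows up to 0.539 CPM if reads are independent. The 0 in SPS replicate 2 allows up to 0.694 CPM on the same terms, and may allow more given the share of genes at 0 there. Over the group, the 2 SPS reads and 40 Control reads gave a ratio of 0.0517 (95% exact interval 0.00605 to 0.199), which covers counting error only and leaves out the spread between libraries. This was the largest relative difference among the 10 in pooled reads, but Oxtr did not pass the expression filter and the groups overlapped. With no filter on low counts, edgeR gave an unadjusted p = 0.0309 and an adjusted p = 1.00 for it, and over all alternatives that tested it the unadjusted p ran from 0.0270 to 0.0888 and the adjusted p was 1.00. Oxt, the ligand, had 2 reads in all.

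On the FPKM scale, which divides by transcript length and so allows levels of different genes to be set side by side, the means lay in 3 ranges. Adcyap1r1 averaged 44.3 ± 23.9 FPKM in SPS and 40.1 ± 14.6 FPKM in Control (SD, n = 3 each). Pdyn followed at 22.3 ± 17.2 FPKM in SPS and 23.8 ± 17.4 FPKM in Control, and Penk at 19.4 ± 6.16 FPKM in SPS and 15.97 ± 2.85 FPKM in Control. The library ranges of these 3 overlapped, so their order is not fixed by these data. Adcyap1, Npy1r, Npy2r and Crhbp averaged 7.99, 6.29, 5.91 and 4.34 FPKM over the 6 libraries, closer to each other than their spread. Single libraries crossed these ranges. In Control replicate 2 Adcyap1 (16.2 FPKM) lay above Penk (13.1) and Pdyn (4.41). In SPS replicate 3 Npy2r (15.5 FPKM) lay above Pdyn (15.3) and Penk (14.3). Oxtr, Crh and Crhr1 averaged 1.15, 0.913 and 0.678 FPKM, and each was at 0 in at least 1 library.

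For 4 of the 7 tested genes, libraries of the same number were more alike than libraries of the same group. Of the sum of squares of log2(CPM + 0.5) over the 6 libraries, replicate number took 98.2% for Npy2r, 95.6% for Adcyap1r1, 92.6% for Npy1r and 87.6% for Pdyn, while SPS or Control took 1.16%, 0.0333%, 4.55% and 0.0978%. For Crhbp, Adcyap1 and Penk number took 23.8%, 0.570% and 5.78%, and group took 30.4%, 16.1% and 12.5%. The remainder, 45.7%, 83.3% and 81.7%, went with neither and was the largest part for each. Over all genes tested the medians were 73.7% for number and 5.90% for group, and number took more than group in 89.0% of genes. Number has more levels than group, so noise alone gives number the larger share on average. The labels do not say what a number shares.

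**Figure D4:**
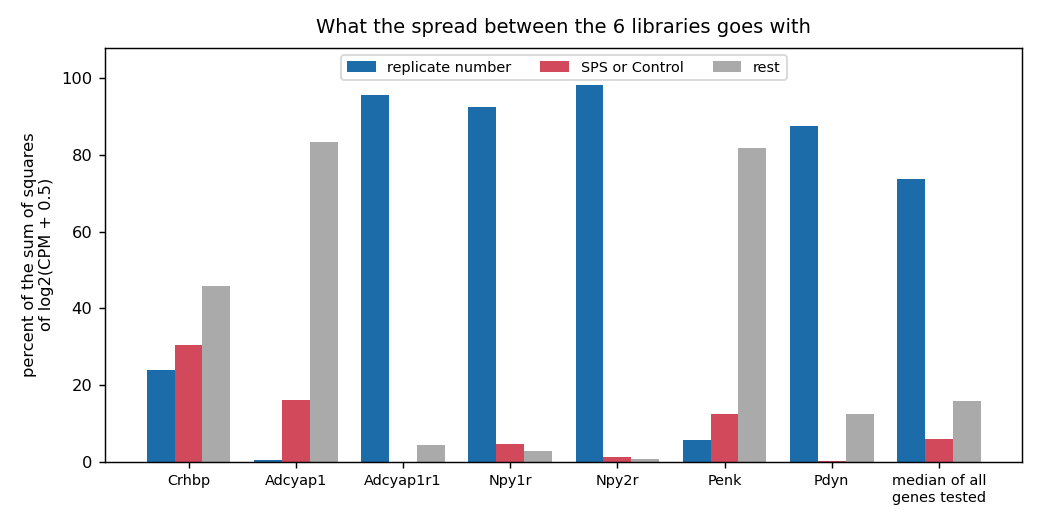
Percent of the sum of squares of log2(CPM + 0.5) over the 6 libraries (vertical axis) that goes with replicate number, with SPS or Control, and with neither, for the 7 tested genes and as the median of all genes tested. Number takes 87.6% to 98.2% for Adcyap1r1, Npy1r, Npy2r and Pdyn, and under 24% for Crhbp, Adcyap1 and Penk.

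The levels at 0 were mostly in the libraries numbered 2. Of the 10 genes 5 had no read in at least 1 library, which was SPS replicate 2 for all 5 (Crh, Crhr1, Crhbp, Npy2r and Oxtr), Control replicate 2 for Crhr1 and Npy2r, and SPS replicate 3 for Oxtr. Among the 2646 genes at 5 to 15 CPM on average in the libraries numbered 1 and 3, where Crhbp (7.23 CPM) and Npy2r (9.80 CPM) lie, 14.2% were at 0 in SPS replicate 2 and 2.00% in Control replicate 2. Both were at 0 for 30 of these genes (1.13%), Npy2r among them. Among the 871 genes at 1 to 2 CPM, the level of Crh, Crhr1 and Oxtr, the shares were 52.1% and 24.8%.

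**Figure D5:**
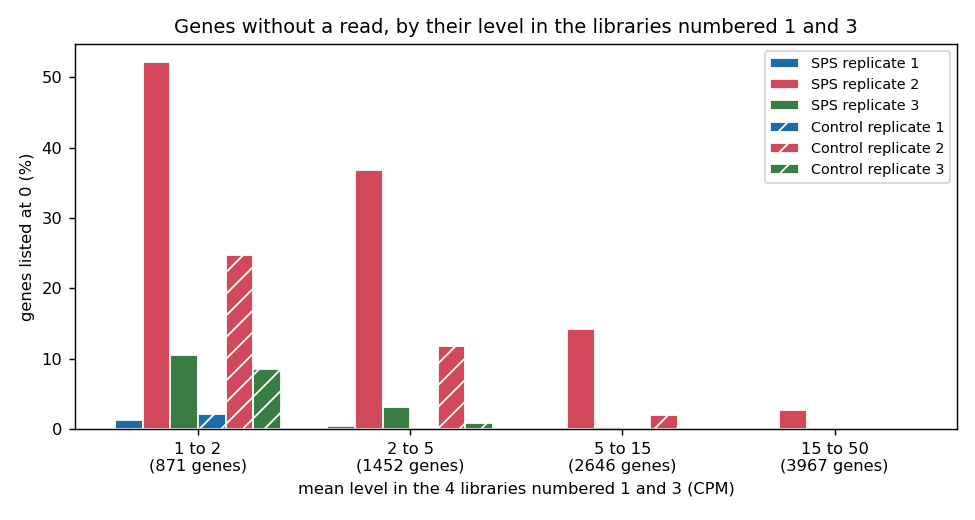
Percent of genes without a read (vertical axis) in each of the 6 libraries, by the mean level of the gene in the 4 libraries numbered 1 and 3 (CPM, horizontal axis); Control bars are hatched. SPS replicate 2 reaches 52.1% at 1 to 2 CPM and 14.2% at 5 to 15 CPM, and Control replicate 2 24.8% and 2.00%; the other 4 libraries set the levels and so are low by construction.

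Other genes of peptide signalling were described from 3 lists. Of 36 other neuropeptides 35 were in the table and 15 were tested, 4 with a positive and 11 with a negative log2 fold change and a median of −0.34, and 0 were called. Those with the smallest p were Cartpt, a feeding and stress peptide precursor, Cck, the cholecystokinin precursor, and Tac3, the neurokinin B precursor. Tac3 was at 12.7, 3.47 and 6.29 CPM in SPS and 22.8, 14.2 and 11.002 CPM in Control replicates 1 to 3, lower in SPS in all 3 pairs, with a log2 fold change of −1.08 ± 0.64 (SE, edgeR unadjusted p = 0.130, and 0.0435 with the replicate block, where the adjusted p = 0.967). Without SPS replicate 1 it was −1.72. Being lower in all 3 pairs held for 4 of the 15 and for 13.2% of all genes tested. Cck was at 106 ± 35.1 CPM in SPS and 223 ± 157 CPM in Control (SD, n = 3 each), with 393 CPM in Control replicate 2. Cartpt held 23.8 CPM in SPS replicate 2 and at most 2.87 CPM in the other 5 libraries.

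Of 43 other peptide receptors 41 were in the table and 18 were tested, 6 with a positive and 12 with a negative log2 fold change, a median of −0.11 and 0 called. Cckbr, the brain cholecystokinin receptor, was at 8.26, 10.4 and 12.4 CPM in SPS and 9.54, 39.0 and 9.90 CPM in Control replicates 1 to 3, so its log2 fold change of −0.91 ± 0.67 came from Control replicate 2 and was 0.08 without it. Aplnr, the apelin receptor, had the next smallest p (edgeR unadjusted p = 0.445) and was at 1.38 ± 1.28 CPM in SPS and 2.85 ± 0.301 CPM in Control. Its SPS libraries were all below its Control libraries, as for no other of the 18 and for 1.4% of all genes tested. The gap was small, with 2.51 CPM in SPS replicate 3 against 2.64 CPM in Control replicate 3, and SPS replicate 2 had no read. Vipr2 followed (edgeR unadjusted p = 0.561). Of the 19 genes for peptide processing and dense-core granules in the table, 17 were tested, 5 positive and 12 negative, with a median of −0.12 and 0 called. Vgf, a granule protein induced by neurotrophins, was at 37.8, 42.1 and 21.9 CPM in SPS and 52.9, 74.3 and 25.7 CPM in Control, lower in SPS in all 3 pairs, with a log2 fold change of −0.59 ± 0.48 (SE, edgeR unadjusted p = 0.260). Leaving out Control replicate 2 gave −0.22, leaving out SPS replicate 3 gave −0.36 and leaving out Control replicate 3 gave −0.91. Pam, the enzyme that amidates peptide ends, and Scg5, a chaperone of the convertase Pcsk2, were at 280 ± 76.8 and 268 ± 112 CPM in SPS and at 361 ± 74.9 and 377 ± 190 CPM in Control (SD, n = 3 each). The median pair differences for numbers 1, 2 and 3 were 0.05, −1.18 and 0.02 on the log2 scale for the receptors, −0.06, −0.64 and 0.04 for the processing genes and −0.39, −0.42 and 0.14 for the neuropeptides. They were 0.08, 0.00 and 0.26 for the 7 tested genes, and 0.0054, −0.098 and 0.0017 for all genes tested. Among the tested receptors Aplnr, Oprm1 and Oprd1, for example, had no read in SPS replicate 2, so their pair numbered 2 rested on a 0. Npy5r had none in either library of that pair. Cckbr had reads in both and was lower in SPS, and some other receptors were higher in SPS.

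For each tested gene the most similar profiles were sought among 11120 genes of at least 5 CPM on average, by the root-mean-square difference of log2(CPM + 0.5) over the 6 libraries after centring each gene on its mean. Set against the SD of the gene itself, the nearest profile lay at 7.58% for Adcyap1r1 (Tmeff2, then Rab10), 11.1% for Crhbp (Zfp868, then Sptssb) and 15.3% for Npy2r (Zfp458, then Ap4e1). It lay at 16.4% for Npy1r (Rps6ka5, then Dscaml1), 19.3% for Penk (Rad17, then Rrp12), 24.9% for Adcyap1 (Rgs2, then Rbm4b) and 28.2% for Pdyn (Gas2, then Arhgef37). With only 6 libraries many genes share a profile, and the differences are given as a description.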

How the data were processed

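Stranded libraries of RNA freed of ribosomal RNA were sequenced for 150 cycles, per the labels' protocols. The submitters' processing notes name CASAVA 1.8, HISAT2 and the human build hg19, although the identifiers are Ensembl rat genes; for the rat build, the quantifier and the use of strand nothing is stated in the sources used here, so coordinates are as the table gives them. The authors deposited FPKM values, named so per the file headers. The authors also deposited an estimated count per gene and library, which had been scaled before deposit: 99.3% to 99.6% of values above 0 were whole multiples of 1 step per library (within 0.05 reads), and were divided by it and rounded to whole reads. No sample column was left unused. No locus of the 10 genes overlapped another in the table.

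The main test was edgeR 4.0.16 in R 4.3.3 (TMM, the tool's expression filter, quasi-likelihood fit on group, Benjamini-Hochberg adjustment over 12441 genes); CPM is reads per 1e+06 TMM-scaled reads. The SE is the log2 fold change divided by the square root of F, without its sign. Alternatives were the replicate block, DESeq2 1.42.0, limma 3.58.1 on log2(FPKM + 1) with a mean of at least 0.5 FPKM, other scalings and filters, and leaving out libraries. No 2 libraries agreed within sampling noise (chi-square per degree of freedom 7.01 to 156).

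Same-numbered samples deviated together from their group means (r across genes 0.41, 0.37 and 0.67 for numbers 1, 2 and 3, at most 0.16 otherwise). The 3 values are not independent. This likeness comes from the data and not the labels, so the main fit stayed on group alone. Number entered only the replicate block and the described pairs.

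The 10 genes and all lists were chosen with earlier results of these data known. Named are the 10, their ligands and partner receptors, the 3 genes of smallest p in each further list, 2 nearest profiles per tested gene and a few markers; Aqp4, Calb1, Plk5, Slc32a1, Gad1, Gad2, Sst, Ppp1r1b, Drd1 and Adora2a were chosen from the marker lists after their values were seen. Pomc, Avp, Trh and the peptides named beside them in the last section were chosen likewise. A count of 0 was taken to allow up to 3 independent reads per library, and intervals and limits cover counting error only.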

Additional observations from a re-analysis of the deposited data

How the results depend on the processing

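All 18 alternatives gave 0 genes and 0 of the 10 genes at adjusted p under 0.05. The 42 genes at an unadjusted p under 0.05 became 172 with the replicate block, 84 with DESeq2, 146 with no filter, 65 with limma and 11 without both libraries numbered 2, and lay between 11 and 230 when single libraries were left out. Of 126 log2 fold changes of the 7 tested genes, 111 kept their sign and 15 turned it. Pdyn was 0.044 with the replicate block, 0.077 by limma on log2(FPKM + 1) with and without a filter and 0.11 on log2(FPKM + 0.1), and lay between −1.002 and 0.32 with single libraries left out; that range was −2.10 to −0.46 for Crhbp, −1.10 to −0.07 for Adcyap1, −0.44 to 0.51 for Adcyap1r1, −0.28 to 0.74 for Npy1r, −0.54 to 2.04 for Npy2r and −0.011 to 0.39 for Penk, and −1.24 to 0.080 for Cckbr. Without both libraries numbered 2 Adcyap1 was 0.24, Penk −0.20, Cckbr 0.062 and Pam 0.00097. The causes were not tested. Under other scalings the median over all genes moved by at most 0.02 on the log2 scale. The replicate block changed no call. At an unadjusted p under 0.05, Oxtr was the only 1 of the 10 in any alternative. Depth limits Crh, Crhr1 and Oxtr, whose reads number 0 to 27 per library.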

Other observations

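For Pomc, Avp, Trh, Gal and Cartpt the highest of the 6 levels was in SPS replicate 2, the library with very high Ttr. No other of the 35 further neuropeptides in the table was highest there. Vip, Tac1, Hcrt, Pmch, Agrp, Calca, Calcb, Npb and Npff had reads in other libraries and none in SPS replicate 2. A tie to the Ttr level was not tested. Pomc, Avp and Trh, described next, were chosen after their values were seen. Pomc, the precursor of ACTH and beta-endorphin, was at 0.726, 23.1 and 1.08 CPM in SPS replicates 1 to 3 and at 1.58, 5.68 and 0 CPM in Control replicates 1 to 3. Avp, the vasopressin precursor, was at 0.272, 10.2 and 1.44 CPM in SPS and at 0.350, 0 and 0.660 CPM in Control. Trh, the thyrotropin-releasing hormone precursor, was at 1.54, 8.57 and 1.98 CPM in SPS and at 2.54, 0 and 0.880 CPM in Control. In reads these levels were 100 for Pomc, 44 for Avp and 37 for Trh in SPS replicate 2, and Pomc and Avp did not pass the expression filter.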
